A study of Mus musculus with 6 samples.

Results

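The C/EBP factors, PU.1 and their companion regulators of myeloid fate were described here in leukemia cells of the AML1-ETO9a (AE9a) mouse model. The 10 genes were Cebpa, Cebpb, Cebpd, Cebpe, Cebpg, Spi1 (which encodes PU.1), Gfi1, Klf4, Id2 and Id1. They were taken by symbol, in a choice made with earlier results of these data known, and are 10 of the 53618 named rows of the expression table. Mice carrying Usp18+/f UBCER-Cre AE9a leukemia gave GFP+Lin-c-Kit+ splenocytes, which were sorted for bulk RNA-seq 3 days after the first of a series of injections. The control group was injected with oil (Usp18+/f, 3 mice) and the other with tamoxifen (3 mice), which activates the Cre recombinase and is meant to leave Usp18+/Δ cells. Both groups carry the floxed allele, a Cre that is not restricted to a cell type, and the AE9a-GFP retrovirus. The leukemia was made in fetal liver cells and passed on by secondary transplantation into irradiated recipients. The oil mice received no tamoxifen, so tamoxifen itself and the deletion cannot be told apart.

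C/EBPα and PU.1 are the factors that direct blood progenitors to the granulocyte and monocyte lineages. C/EBPα is required before the granulocyte-monocyte progenitor can form, C/EBPβ acts in stress granulopoiesis and in macrophages, C/EBPε acts late in granulocyte maturation, and C/EBPγ has no activation domain of its own and works as a dimer partner. PU.1 and GATA1 antagonize each other in the choice between myeloid and erythroid fates. AML1-ETO, the leukemia fusion protein of which AE9a is a truncated form, is known to lower CEBPA transcription and to interfere with the function of PU.1.

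In these cells PU.1 and C/EBPγ transcripts were abundant, C/EBPβ was intermediate, and Cebpa, Cebpd, Cebpe and Klf4 were at or near the detection limit. Gfi1 was also near it in the oil libraries, at 2 to 5 reads, and entered the test only through its tamoxifen values. Between tamoxifen and oil, Cebpb and Gfi1 were higher in all 3 tamoxifen libraries than in all 3 oil libraries, by a log2 fold change of 1.35 ± 0.52 and 1.76 ± 0.47 (SE, n = 3 per group). Neither passed the threshold of an adjusted p under 0.05 across the genes tested. The same separation of groups, with tamoxifen higher, was found for 7.86% of the 12298 genes tested. Spi1, Cebpg, Id2 and Id1 overlapped between groups, and their fold changes shrank or turned in sign without the library tamoxifen 1. Without that library Cebpb also shrank, to 0.77, and Gfi1 was at 1.52.

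Usp18 is the targeted gene and itself interferon-inducible. It had 217, 214 and 176 normalized counts in the oil libraries and 477, 329 and 284 in the tamoxifen libraries. The intended deletion was thus not seen in its counts. These cover the whole gene, of which an allele is meant to stay intact, so the deletion itself was not tested. Directions below are between libraries labelled tamoxifen and labelled oil. The reads assigned to named genes numbered 19164795 to 23770537 per library. The library tamoxifen 1 stood apart from the others. Mitochondrial genes took 0.00923% of its reads against 1.01% to 1.56% in the other 5, its correlation with another library, taken over genes, had a median of 0.913 against 0.981 to 0.990 for the rest, and its deviation from the gene medians rose with GC content (Spearman 0.704 across 10807 genes, which are not independent, against -0.227 to 0.0339). It was the highest or the lowest of the 6 libraries for 82.7% of the 12298 genes tested. The fold changes of the 6 tested regulators are therefore also given without it.

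The label of acute myeloid leukemia cells was compared with the defining genes. Kit, used for the sort, was high in each library, at 4687 to 10976 normalized counts, and of the other progenitor markers Myb was at 3097 to 6692 and Cd34 at 201 to 1052. The granule genes Mpo and Elane, from the same list of 6, had no more than 20.2 and 11.1 normalized counts in any library, the common leukocyte antigen Ptprc no more than 8.08, and Csf3r and Itgam were at 0 in 5 of the 6 libraries. In contrast, all 8 mast cell and basophil markers were detected, with a summed level of 58852 to 65155 in oil and 50833 to 83806 in tamoxifen libraries, and so were all 9 erythroid markers, at 90758 to 107419 and 96152 to 148272. The erythroid and mast cell factors Gata1 (6453 to 10017) and Gata2 (8872 to 13302) were also high. Of 12 macrophage and monocyte markers, 9 reached 10 normalized counts in at least 3 libraries, as did 1 of 10 neutrophil markers. The levels below are thus those of cells with progenitor, mast cell and erythroid transcripts and with little RNA of the neutrophil granule genes.

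RefSeq promoter windows (GRCm38.p6, 250 bases before to 50 after the annotated start) were found for 6 of the 10 genes, namely Cebpa, Cebpb, Cebpg, Gfi1, Klf4 and Id2. Those of Cebpg, Cebpa and Cebpb are shown, because Cebpg and Cebpa are neighbors on chromosome 7 of which the former was abundant and the latter near 0, and because the balance of Cebpb to Cebpg differed between libraries. Capitals mark the motifs TATAAA and CCAAT on either strand (CCAAT on the other strand reads ATTGG).
Cebpg, chr7:35056517-35056816, minus strand: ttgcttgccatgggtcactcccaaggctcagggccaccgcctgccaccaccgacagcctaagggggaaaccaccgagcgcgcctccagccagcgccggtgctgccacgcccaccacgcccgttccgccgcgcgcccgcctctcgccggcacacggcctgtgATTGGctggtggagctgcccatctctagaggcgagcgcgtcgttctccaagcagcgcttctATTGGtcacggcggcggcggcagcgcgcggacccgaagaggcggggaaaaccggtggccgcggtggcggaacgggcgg
Cebpa, chr7:35119043-35119342, plus strand: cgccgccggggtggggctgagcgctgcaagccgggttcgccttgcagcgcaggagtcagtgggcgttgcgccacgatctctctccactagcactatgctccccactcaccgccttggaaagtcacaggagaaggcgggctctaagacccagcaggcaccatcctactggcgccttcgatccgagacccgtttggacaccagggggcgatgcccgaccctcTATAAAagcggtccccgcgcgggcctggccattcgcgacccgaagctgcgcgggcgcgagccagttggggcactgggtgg
Cebpb, chr2:167688665-167688964, plus strand: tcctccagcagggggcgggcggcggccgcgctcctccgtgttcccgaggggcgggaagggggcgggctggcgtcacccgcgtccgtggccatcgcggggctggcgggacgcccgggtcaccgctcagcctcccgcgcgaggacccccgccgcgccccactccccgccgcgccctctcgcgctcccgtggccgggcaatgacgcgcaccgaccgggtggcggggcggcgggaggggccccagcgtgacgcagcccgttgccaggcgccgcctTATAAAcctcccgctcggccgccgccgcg

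The abundantly transcribed Cebpg has a window of 71.7% GC with 38 CpG dinucleotides and a pair of inverted CCAAT boxes, whose first bases lie at -89 and -28 from the start, and holds no TATAAA. The window of Cebpa, which had no read in any oil library, has 67.3% GC, 29 CpG dinucleotides and TATAAA at -30, the usual place of a TATA box. That of Cebpb is the most GC-rich of the shown windows at 80.7% with 50 CpG dinucleotides, and its TATAAA lies at 22 bases after the annotated start. The median over the 32841 mouse windows searched, which do not cover every chromosome, was 52.7% GC. TATAAA occurred in 13.6% of the windows and CCAAT in 37.4%. The Id2 window holds CCAAT at -159 (inverted), -120 and -76. A further 5 motifs were searched on both strands. They were the Runx motif TGTGGT (in 16.8% of the windows searched), the PU.1 and ETS motif GAGGAA (28.3%), the GATA motif AGATAA (11.2%), the C/EBP motif TTGCNNAA (10.8%) and the interferon-stimulated response element (3.44%). Of these, the C/EBP motif alone was found, in 1 of the 2 Gfi1 windows, at -143, and no match overlapped another. These letters are a description of the windows and not evidence of binding.

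**Figure D1:**
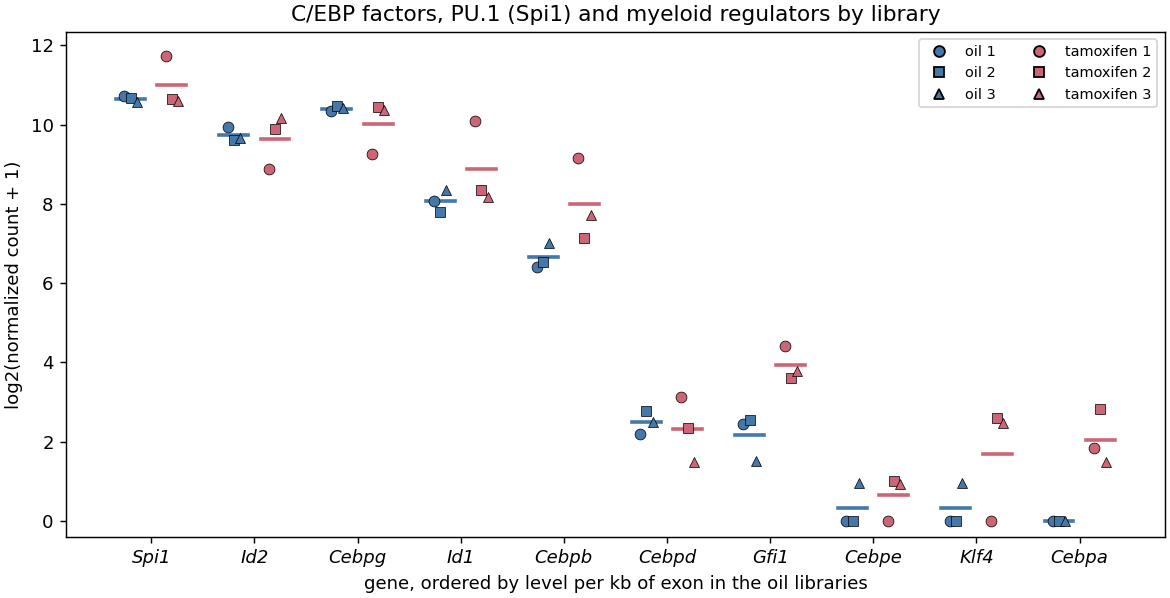
Level of each of the 10 regulators in each library, on a log2(normalized count + 1) scale, with genes ordered by their level per kb of exon in the oil libraries. Points are single libraries (circle, square and triangle for replicates 1, 2 and 3) and bars are group means. Spi1, Id2, Cebpg, Id1 and Cebpb lie well above the other 5 genes, and tamoxifen 1 is the highest or lowest point for each of them.

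Normalized counts are reads divided by a size factor for each library, so that 1 read is worth 0.8982 to 1.278. To compare the genes with one another, levels were divided by exon length. In the oil libraries (mean ± SD, n = 3 throughout), Spi1 led with 599 ± 30.1 normalized counts per kb, followed by Id2 with 349 ± 43.9, Cebpg with 241 ± 11.4, Id1 with 234 ± 46.6 and Cebpb with 67.2 ± 15.2. Cebpg and Id1 overlapped (229 to 252 against 189.6 to 283) and their order is not resolved, whereas the other neighbors in this upper range did not overlap. Cebpd (1.25 ± 0.293) and Gfi1 (1.17 ± 0.51) overlapped with each other far below, and Cebpe (0.249 ± 0.432), Klf4 (0.102 ± 0.176) and Cebpa (0) closed the order. Spi1 thus exceeded the myeloid partner with which it is usually paired, Cebpa, which gave no read. In bulk samples a low level cannot be assigned to fewer expressing cells or to less RNA per cell.

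Of the 10 genes, 6 passed the expression filter (at least 10 normalized counts in at least 3 libraries) and were tested, and 4 (Cebpa, Cebpd, Cebpe and Klf4) lay below it. Gfi1 passed only through its tamoxifen values. None of the 6 was called by limma at an adjusted p under 0.05, where the background was 0% (0 of 12298 genes). At an unadjusted p under 0.05 there were 2 of 6, Cebpb and Gfi1, against 4.47% of all genes (550). DESeq2 on recovered reads called 0 of the 10 against 0.293% of 24246 genes, with 4 of the 10 at an unadjusted p under 0.05 against 3.65% of all genes (886). Cebpa, Cebpe and Klf4 had no adjusted p in DESeq2 and could not be called, although they are counted in these totals. edgeR called 0 of the 6 and 0 of all genes, with 2 of the 6 and 4.85% of all genes (596) at an unadjusted p under 0.05. All 3 tamoxifen libraries lay above all 3 oil libraries for 2 of the 6 and below for 0, and the backgrounds were 7.86% and 9.69% (17.6% in either direction). Without Gfi1, the median log2 fold change of the other 5 was 0.34, and 0.19 without tamoxifen 1, against -0.017 and -0.021 over all genes tested. With 3 libraries per group an exact permutation test of a single gene cannot give a p below 0.1.

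Among the C/EBP factors, Cebpa (chromosome 7, 35119293 to 35121928, plus strand, GRCm38) had 0 reads in each oil library and 2, 6 and 2 reads in tamoxifen 1, 2 and 3. These were 2.56, 6.06 and 1.82 normalized counts, with a mean of 3.48 ± 2.27 (SD, n = 3). A count of 0 allows up to 3 reads, or 2.69 to 2.89 normalized counts in the oil libraries, and tamoxifen 2 alone exceeded the 3-read limit, so no fold change is given. All 3 tamoxifen values lay above all 3 oil values, as was the case for 6.23% of the 24247 genes with a read. Without the filter, limma gave an unadjusted p of 0.00277 and an adjusted p of 0.7. DESeq2 gave an unadjusted p of 0.0265 and no adjusted p. Summed over the 10 neutrophil markers, the oil libraries held 17.1 to 28 normalized counts and the tamoxifen libraries 40 to 71.7. Ly6g was at 0 in each library. The 1 marker of the 10 past the filter, Mmp8, had 8.98, 19.3 and 13 in oil and 0, 8.08 and 13.6 in tamoxifen libraries. It overlapped between groups, as did Mmp9, Retnlg and Cxcr2. The Lin- gate is meant to leave out mature neutrophils. Their part in the differences of Cebpa, and of Gfi1 below, was not tested.

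The neighbor of Cebpa, Cebpg (chromosome 7, 35046422 to 35056573, minus strand), lies 62.7 kb away, with 4 noncoding genes annotated between them that had no read. Cebpg had 1288, 1414 and 1368 normalized counts in the oil libraries and 609.6, 1389 and 1332 in the tamoxifen libraries. Tamoxifen 1 was low, and tamoxifen 2 and 3 lay within the oil range. The log2 fold change was -0.38 ± 0.33 (SE), with a 95% interval of -1.17 to 0.40 and an adjusted p of 0.666 in limma. When tamoxifen 1 was left out the difference was 0.0050. Cebpg transcripts have 43.3% GC, and after correction for GC content the log2 fold change of all 6 libraries was -0.06 ± 0.13.

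Cebpb (chromosome 2, 167688915 to 167690418, plus strand), a single-exon gene, had 84.4, 91.7 and 127 normalized counts in the oil libraries and 566, 139 and 208 in the tamoxifen libraries. The groups did not overlap, with tamoxifen 1 far above the rest and tamoxifen 2 close to oil 3. The means were 101 ± 22.9 and 305 ± 229 (SD, n = 3). The log2 fold change of 1.35 had a 95% interval of 0.11 to 2.59, a limma unadjusted p of 0.0373 and an adjusted p of 0.666. Without tamoxifen 1 it was 0.77 ± 0.24 (SE), with an adjusted p of 0.25, and tamoxifen 2 and 3 still lay above each oil library, as was so for 12.6% of genes. Cebpb transcripts have 67.2% GC, the highest among the 6 genes, and GC correction gave 0.85 ± 0.24 with an adjusted p of 0.578. With limma's library weights, in which tamoxifen 1 had a weight of 0.0377, the log2 fold change was 0.97 and the adjusted p 0.0148, the single call among the 10 genes in any of the settings run, and 6.36% of all genes were called. Its adjusted p in the other settings lay between 0.156 and 0.861. Its exon shares 312 bases with exons of Tmem189 on the opposite strand (484 to 561 reads), and reads there may not be separated, since the strand setting of the counting is not given in the sources used here.

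**Figure D2:**
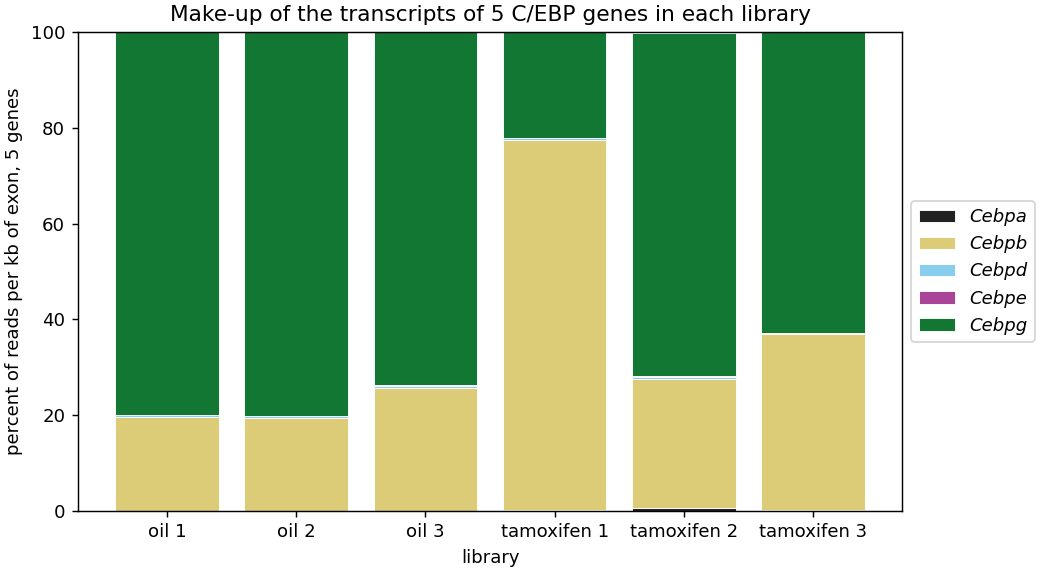
Percent of the reads per kb of exon of 5 C/EBP genes (Cebpa, Cebpb, Cebpd, Cebpe and Cebpg) that came from each of them, as a stacked bar for each library. Cebpg and Cebpb make up nearly all of each bar, and the Cebpb part is 19.4% to 25.6% in the oil libraries and 77.2%, 26.9% and 36.7% in tamoxifen 1, 2 and 3.

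Among the 5 C/EBP genes described here, Cebpg and Cebpb together held nearly all transcripts, and none of the other 3 exceeded 0.668% of the reads per kb in any library. The more distant family member Ddit3, which is described below, is not in this total and was at 199.9 normalized counts per kb in oil (mean, n = 3). Per kb of exon, Cebpb made up 19.6%, 19.4% and 25.6% of the signal of the 5 genes in the oil libraries and 77.2%, 26.9% and 36.7% in the tamoxifen libraries. All 3 tamoxifen libraries were above all 3 oil libraries, although tamoxifen 2 exceeded oil 3 by little. In reads, the share of Cebpb in tamoxifen 2 and oil 3 was 9.06% (95% Wilson interval 7.72% to 10.6%, of 1524 reads) and 8.48% (7.22% to 9.94%, of 1616 reads), and these intervals overlap. The ratio of Cebpg to Cebpb, in normalized counts, was 15.3, 15.4 and 10.8 in oil and 1.08, 9.96 and 6.4 in tamoxifen libraries. The intervals cover counting error only.

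Cebpd (chromosome 16, 15887286 to 15891031, plus strand), the C/EBP gene of the acute-phase and inflammatory response, had 4, 6 and 5 reads in the oil libraries and 6, 4 and 2 in the tamoxifen libraries. Its normalized counts of 3.59, 5.79 and 4.64 in oil and 7.67, 4.04 and 1.82 in tamoxifen libraries overlapped. Cebpe (chromosome 14, 54710360 to 54712174, minus strand), which drives the late granule genes, had 0, 0 and 1 reads in oil and 0, 1 and 1 in tamoxifen libraries, and a difference was not detectable at this depth. Cebpd shares 562 bases of exon with Spidr on the opposite strand, which had 372 to 987 reads.

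Spi1 (chromosome 2, 91082390 to 91115756, plus strand), the gene of PU.1, had 1679.7, 1637 and 1523 normalized counts in the oil libraries and 3428, 1593 and 1555 in the tamoxifen libraries. Tamoxifen 1 was 2.15 times the mean of the other 5 libraries, while tamoxifen 2 and 3 lay inside the oil range. The log2 fold change was 0.34 ± 0.32 (SE, n = 3 per group), with a 95% interval of -0.42 to 1.10 and an adjusted p of 0.667 in limma. When tamoxifen 1 was left out it was -0.03, and after GC correction of all 6 libraries 0.05 ± 0.12. The SD over the other 5 libraries was 62.7 about a mean of 1598. Of 9399 genes with a mean of at least 100, those whose centred log2 pattern over the 6 libraries was nearest to Spi1 were Ptcd1, Fxr2 and Cog1, with root mean square differences of 0.0258, 0.0323 and 0.0379. Ptcd1 had 476, 472 and 452 normalized counts in oil and 969, 466 and 455 in tamoxifen libraries, so the shared pattern was the height of tamoxifen 1. Cebpa was not among the genes for which likeness was computed.

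Gfi1 (chromosome 5, 107716657 to 107726036, minus strand), a transcriptional repressor required for neutrophil development, had 4.49, 4.82 and 1.86 normalized counts (5, 5 and 2 reads) in the oil libraries and 20.4, 11.1 and 12.7 (16, 11 and 14 reads) in the tamoxifen libraries. The lowest tamoxifen library was above the highest oil library. The means were 3.72 ± 1.63 and 14.8 ± 4.99 (SD, n = 3), and the log2 fold change of 1.76 had a 95% interval of 0.63 to 2.89, a limma unadjusted p of 0.00817 and an adjusted p of 0.666. Without tamoxifen 1 the log2 fold change was 1.52 with an adjusted p of 0.328, and GC correction also gave 1.52. Because Gfi1 entered the test through its tamoxifen values alone, its count among the 6 is not read as support. Its paralog Gfi1b, which acts in erythroid cells and megakaryocytes, was at 2121 to 2349 normalized counts in oil and at 3713, 2060.0 and 2277 in tamoxifen libraries.

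Klf4 (chromosome 4, 55527143 to 55532466, minus strand), a zinc finger factor that promotes monocyte differentiation, had 0, 0 and 1 reads in the oil libraries and 0, 5 and 5 in the tamoxifen libraries. Tamoxifen 2 and 3 were at 5.05 and 4.55 normalized counts, above each oil library, and tamoxifen 1 had no read. Limma without the filter gave an unadjusted p of 0.0991. The monocyte and macrophage markers, summed over 12 genes, were at 522 to 687 normalized counts in oil and 376 to 828 in tamoxifen libraries, and overlapped. Ccr2 held most of this sum in each library but tamoxifen 1. The other 11, taken alone after the values were seen, summed to 258, 105 and 118 in oil and 330, 387 and 292 in tamoxifen libraries, which did not overlap. The Lin- gate is meant to leave out mature myeloid cells. Their part in the Klf4 values was not tested.

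The ID proteins are helix-loop-helix factors without a DNA-binding region, which hold E proteins in inactive dimers. Id2 (chromosome 12, 25093799 to 25097140, minus strand) had 974, 776 and 804 normalized counts in the oil libraries and 469, 944 and 1145 in the tamoxifen libraries. Tamoxifen 1 was below and tamoxifen 3 above the oil range. The log2 fold change was -0.09 ± 0.34 (SE), with a 95% interval of -0.90 to 0.73 and a limma adjusted p of 0.902. Its sign turned without tamoxifen 1, to 0.30 with an unadjusted p of 0.0422 and an adjusted p of 0.396.

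Id1 (chromosome 2, 152736251 to 152737410, plus strand), a direct target of BMP signaling, had 267, 220.0 and 328 normalized counts in the oil libraries and 1095, 324 and 286 in the tamoxifen libraries. Tamoxifen 1 stood far above, and the other 2 tamoxifen libraries lay inside the oil range. The log2 fold change was 0.80 ± 0.52 (SE), with a 95% interval of -0.44 to 2.04 and a limma adjusted p of 0.666, and without tamoxifen 1 it was 0.19. Per kb of exon, the ratio of Id2 to Id1 was 1.74, 1.68 and 1.17 in oil and 0.204, 1.38 and 1.9 in tamoxifen libraries. Tamoxifen 1 alone held more Id1 than Id2.

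**Figure D3:**
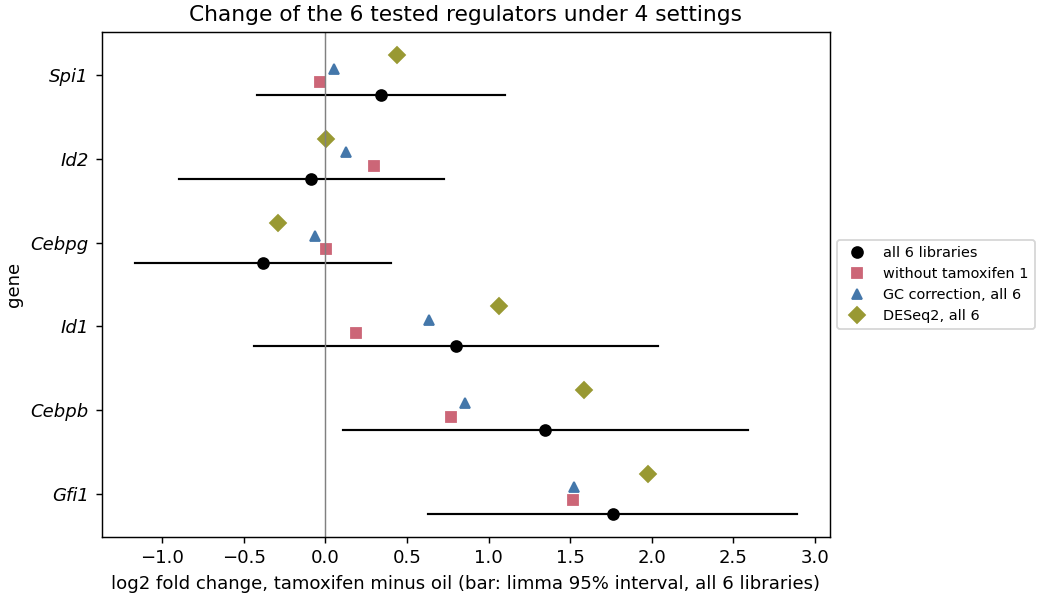
Log2 fold change (tamoxifen minus oil) of the 6 tested regulators. Black points and bars are the limma estimates and 95% intervals with all 6 libraries, squares the estimates without tamoxifen 1, triangles those after GC correction and diamonds those of DESeq2. Spi1, Cebpg, Id1, Cebpb and Gfi1 all move toward 0 without tamoxifen 1 and after GC correction, and Id1, Cebpb and Gfi1 stay above 0 in each setting shown.

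Among the 6 tested genes, tamoxifen 1 was the highest library for 4 (Cebpb, Spi1, Gfi1 and Id1) and the lowest for Cebpg and Id2, against backgrounds of 41.1% and 41.6% of genes. It was at least 2 times the next library for 3 of the 6, Cebpb, Spi1 and Id1 (background 6.72%), and at most 0.5 times the lowest other library for 1, Cebpg (background 17.1%). Cebpg and Id2, the pair in which it was lowest, have the lowest transcript GC contents of the 6, at 43.3% and 45.1%. The other 4 have 54.7% to 67.2%. On the log2 scale, tamoxifen 1 differed from the median of the other 5 libraries by 2.15 for Cebpb, 1.10 for Spi1, 1.93 for Id1, 1.88 for Gfi1, -1.16 for Cebpg and -1.01 for Id2. After GC correction these differences were 0.74, 0.22, 1.40, 1.14, -0.33 and -0.45, so the part that remained was largest for Id1 and Gfi1.

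Other regulators of myeloid fate were read from a list of 26 genes, of which 22 were tested and 0 were called by limma, with 4 at an unadjusted p under 0.05 against 4.47% of all genes. Of the 18 that passed on the oil libraries alone, 1 was at an unadjusted p under 0.05, Klf2. All 3 tamoxifen libraries lay above the oil libraries for 4 of the 22 and below for 2. The backgrounds were 7.86% and 9.69% of all genes tested. Maf, Nfil3 and Vdr were among the genes that did not pass the filter on the oil libraries alone. The erythroid factor Tal1 was at 8106 to 11885 and the progenitor factor Myb at 3097 to 6692 normalized counts, whereas Irf8, a monocyte and dendritic cell factor, did not exceed 15.3 in any library. Maf, a macrophage factor, had 2.69, 3.86 and 1.86 normalized counts in oil and 14.1, 16.2 and 16.4 in tamoxifen libraries (log2 fold change 2.15 ± 0.39, limma unadjusted p 0.00115, adjusted p 0.58). It was at a few reads in oil and higher in each tamoxifen library. Nfil3, a basic leucine zipper factor, was at 2.79 to 6.29 against 10.1 to 13.6, and Klf2 at 87.1, 30.9 and 26.9 against 12.8, 11.1 and 10 (log2 fold change -1.81 ± 0.49, adjusted p 0.666). The median log2 fold change of the 18 was 0.14, and -0.04 without tamoxifen 1.

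Of 10 partners and regulators of C/EBP factors, 9 were tested, 0 were called and 1 was at an unadjusted p under 0.05, against 4.47% of all genes. Atf4, whose product is a stress-response dimer partner of C/EBPγ, was at 5833, 6266 and 6923 normalized counts in oil and 9166, 7327 and 6413 in tamoxifen libraries. Trib3, a stress-induced pseudokinase, had 268, 231 and 311 in oil and 953, 373 and 555 in tamoxifen libraries (log2 fold change 1.12 ± 0.35, limma unadjusted p 0.0171, adjusted p 0.666, and 0.76 without tamoxifen 1). Ddit3, which encodes the C/EBP family member CHOP, had 344, 339 and 344 against 1159, 379 and 477. For both genes, as for Cebpb, each tamoxifen library lay above each oil library and tamoxifen 1 was the highest. The former was so for 7.86% of all genes tested. Batf was at 66.9 to 94.5 against 92.8 to 141. Trib1, which marks C/EBPα for degradation, was below the filter at 1.93 to 16.7.

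The E proteins and their partners were tested in 6 of 7 genes, and 0 were called (background 0%), with 0 at an unadjusted p under 0.05 in limma, where the 4.47% of all genes would be under 1 gene of a list of this size. Tcf3, the E protein gene bound by ID proteins, was at 5206, 5737 and 5821 normalized counts in oil and 13459, 5321 and 5523 in tamoxifen libraries. As for Id1 and Spi1, tamoxifen 1 was the highest library, and tamoxifen 2 and 3 lay inside the oil range. Tcf4 was at 781 to 951 and 478 to 930.5, Lyl1 at 1667 to 1829.7 and 1649.8 to 2991. Id3 overlapped at 28.7 to 55.7 and 30.9 to 80.5. Of 9 BMP and TGF-β responsive genes, Id3 among them, 8 were tested and 0 were called, with 0 at an unadjusted p under 0.05 (again against 0% and 4.47% of all genes), and Atoh8 had no read. Smad7 (263 to 348 against 292 to 617), Smad6 (23.2 to 35.9 against 30.9 to 49.8) and Ski (1708 to 2015 against 1697 to 3435), overlapped between groups.

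**Figure D4:**
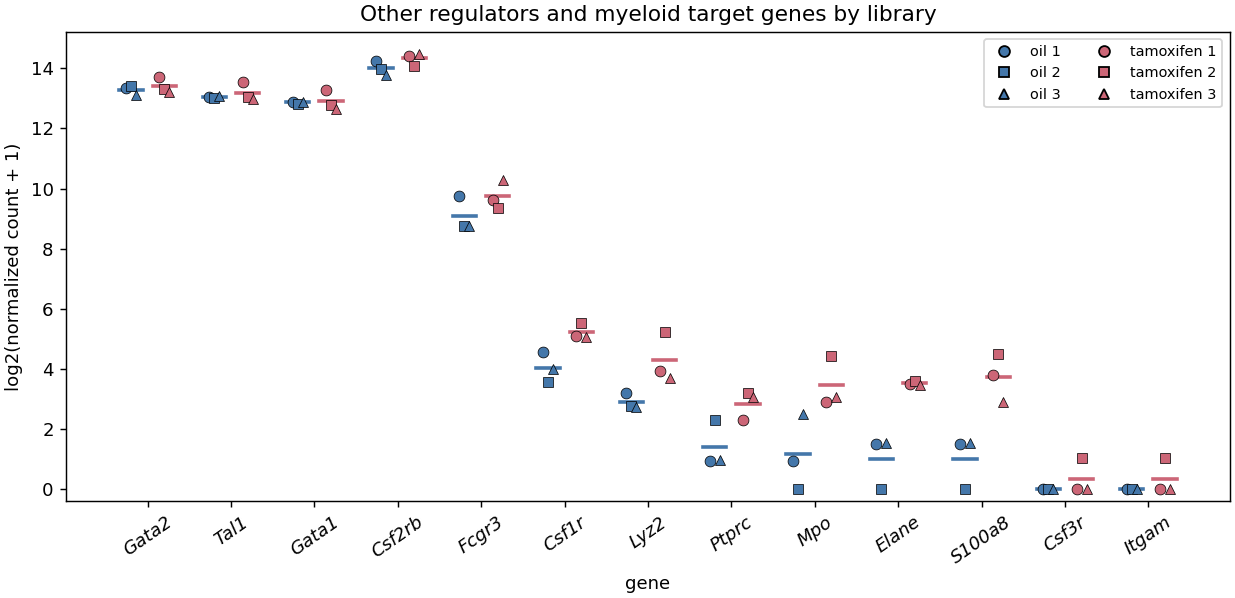
Level of 3 erythroid and mast cell regulators and of 10 target genes of C/EBP factors and PU.1 in each library, on a log2(normalized count + 1) scale, with bars at group means. Gata2, Tal1, Gata1 and Csf2rb are high and Fcgr3 is at a middle level in both groups. Mpo, Elane and S100a8 are near 0 in oil and at low levels in tamoxifen libraries. Csf3r and Itgam, at the far right, are at 0 in each library but tamoxifen 2.

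The known target genes of C/EBP factors and PU.1 were split in level. Of 32 genes, 15 passed the filter (11 of them on the oil libraries alone, the others being Elane, Lyz2, Prtn3 and Mmp8), 0 were called by limma, with 3 at an unadjusted p under 0.05 (against 4.47% of all genes), and 0 by DESeq2. Of these 3, Csf1r alone was among the 11. The cytokine receptor chain Csf2rb was at 13981 to 22895 and the Fc receptor Fcgr3 at 427 to 1250.4 normalized counts, and their oil means were at percentiles 98.8 and 47 of the genes tested. The granulocyte targets Mpo, Ltf, Ngp, Camp, Lcn2, S100a8 and S100a9 all lay below the filter. Elane (neutrophil elastase) had 1.8, 0 and 1.86 normalized counts in oil and 10.2, 11.1 and 10 in tamoxifen libraries (log2 fold change 2.52 ± 0.56, limma unadjusted p 0.00314, adjusted p 0.666). S100a8 had 1.8, 0 and 1.86 against 12.8, 21.2 and 6.37. Both genes were higher in each tamoxifen library, at levels of at most 21 reads.

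Csf1r, the receptor for macrophage colony-stimulating factor and a PU.1 target, had 22.5, 10.6 and 14.9 normalized counts in oil and 33.2, 44.5 and 31.8 in tamoxifen libraries (log2 fold change 1.19 ± 0.37, limma unadjusted p 0.0159, adjusted p 0.666). Lyz2 (lysozyme) had 8.08, 5.79 and 5.57 against 14.1, 36.4 and 11.8, and Ctsg (cathepsin G) 64.7, 51.1 and 90.1 against 124, 75.8 and 188. Csf1r and Lyz2 did not overlap between groups, and Ctsg did. All 3 tamoxifen libraries lay above all 3 oil libraries for 12 of the 32 genes with the low ones included, and below for 0. Among genes with a read this was so for 6.23%. The median log2 fold change of the 11 targets that passed on the oil libraries alone was 0.44, and 0.28 without tamoxifen 1, against -0.017 and -0.021 over all genes tested. The sum of neutrophil markers given above was also higher in tamoxifen libraries. However, 7 of its 10 genes are on this list, so it is not a separate observation. The sum of the 12 macrophage and monocyte markers given with Klf4 overlapped between groups. That of the 11 without Ccr2, a choice made after the values were seen, did not, and Csf1r and Cd68 are also on this list. The part of neutrophils or macrophages in the values of the target genes was not tested.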

How the data were processed

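GFP+Lin-c-Kit+ splenocytes of 3 oil and 3 tamoxifen mice were analyzed. The authors used RNA STAR and DESeq2 according to the study's methods, and the submitters' processing notes name mm10. The annotation used, the strandedness of the counting and any filter are not given in the sources used here. The values the authors deposited are a normalized signal, in which the reads of a gene were divided by a size factor of its library. Dividing by what 1 read is worth recovered whole reads for the count tests, with 100% of values whole within 0.001. No molecular identifiers are named in these sources, so reads may be copies of the same molecule. The table held 55450 rows, and the 1832 without a gene name (0.04% to 0.0614% of reads) were left out.

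The test was limma 3.58.1 (R 4.3.3) with a mean-variance trend on log2(value + 1), over the 12298 genes that reached 10 in 3 or more libraries. Fold changes on this scale understate those of low genes. Tests were two-sided, with Benjamini-Hochberg adjustment over all genes tested and a threshold of 0.05. Errors are standard errors of limma unless called SD. The members and lists were chosen with earlier results of these data known. Genes named were the members, Usp18, up to 4 genes per list by smallest p and the 3 genes nearest to Spi1, and others were named after their values were seen. The results of a few genes are not reported here. Alternatives were recovered reads tested by DESeq2 1.42.0 and edgeR 4.0.16, scaling by TMM, a pseudocount of 0.5 or 5, no filter, a replicate block, a GC correction (loess, span 0.3), library weights and leaving out each library. Medians over genes that pass the filter on the oil libraries alone were added after the data were seen. The fits were tested on simulated data. Coordinates are from GENCODE vM21 (GRCm38) by symbol.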

Additional observations from a re-analysis of the deposited data

How the results depend on the processing

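In the 6 libraries limma called 0 of 12298 genes and 0 of the 10 regulators. The number of genes called was 71 with DESeq2, 2 with GC correction and 782 (470 higher, 312 lower) with library weights, which also called 1 regulator, Cebpb. It ranged from 0 to 41 over fits that left out each library in turn, the 41 arising without tamoxifen 1. Chosen after the data were seen were fits without tamoxifen 1 by DESeq2 (230 genes), edgeR (46) and GC correction (45), and none called a regulator. TMM scaling, pseudocounts of 0.5 and 5, and no filter called 0 genes. With the replicate number as a block, limma called 0 genes and 0 regulators, with 426 genes at an unadjusted p under 0.05 against 550. Same-numbered deviations correlated at -0.0236, 0.0607 and -0.153, which does not show that the numbers pair the samples. Because tamoxifen 1 enters the deviations of its whole group, these values cannot exclude a pairing.

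Cebpb, Gfi1 and Id1 kept a log2 fold change above 0 in each alternative run. Cebpg turned from -0.38 to 0.0050 without tamoxifen 1, and in such fits to 0.0174 (DESeq2), 0.0269 (edgeR) and 0.0433 (GC correction). Spi1 turned from 0.34 to -0.0400 with library weights, to -0.0342 without tamoxifen 1, and in such fits to -0.0225 (DESeq2), -0.0129 (edgeR) and -0.0256 (GC correction). Id2 turned from -0.09 to 0.0027 (DESeq2), 0.0234 (edgeR), 0.1231 (GC correction, also with the replicate block), 0.3875 (library weights), 0.0137 (without oil 1) and 0.2953 (without tamoxifen 1), and without tamoxifen 1 to 0.3092 (DESeq2), 0.3194 (edgeR) and 0.3259 (GC correction). Over the fits that left out each library in turn, Cebpg ranged from -0.5884 to 0.0050, Spi1 from -0.0342 to 0.5357 and Id2 from -0.3475 to 0.2953. The cause was not tested. At 0 to 6 reads per library, Cebpa, Cebpd, Cebpe and Klf4 are limited by depth.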
